A study of Mus musculus with 10 samples.

Results

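The melanocortin pathway and its pigment targets were read in hippocampi of Dp5/Dp1 mice, a model of Down syndrome, through 10 genes: agouti (symbol a), Gpnmb, Agrp, Pomc, Mc1r, Mc3r, Mc4r, Atrn, Mgrn1 and Tyr. They were named by function around a and Gpnmb, which had been chosen by the difference of their log2 levels between the Dp5/Dp1 and control arrays described here. Of the 10 genes, 9 were measured among the 19938 genes of the arrays. Agrp, the hypothalamic antagonist of the melanocortin receptors, was not analysed here, because no probe set of the annotation used carried its symbol alone.

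The Dp5/Dp1 group held 5 male mice of 16 weeks, compound carriers of the Dp5Yah and Dp1Rhr duplications of mouse chromosome 16 (Mmu16). The control group held 5 male littermates of the same age with neither duplication. Both duplications are germline and present in every cell. All the mice were on a C57BL/6N background per the labels, and on C57BL/6J per the methods of the study. The controls were shared with mice that carry Dp5Yah or Dp1Rhr alone, and those mice were not analysed here. Total RNA came from the whole right and left hippocampus, with 1 array per mouse. Values are RMA log2 expression, so that a difference of 1 is a doubling of signal. Levels of different genes are not set against each other, because each rests on its own probes. The exception is the mark of the dimmest 40% of genes by mean level, a coarse ranking of signal. A gene is called where limma gave a Benjamini-Hochberg adjusted p under 0.05 over the 19938 genes. This held for 0.206% of all genes, and outside the duplications for 4 of 19825. A count of 0 called in a short list is near that share.

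Agouti is a secreted protein that blocks the melanocortin receptor Mc1r on pigment cells of the hair follicle, which switches them from black to yellow pigment. C57BL/6 mice are nonagouti, with an insertion in the agouti gene that abolishes its normal pulse in the follicle. In the brain, peptides cut from proopiomelanocortin (Pomc) activate Mc3r and Mc4r, and Agrp, the relative of agouti, opposes them in the control of feeding. Gpnmb is a transmembrane glycoprotein of melanosomes and lysosomes, found in pigment cells and in macrophages and microglia loaded with lipid.

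The labels and the tissue were checked first. Because the titles of the Dp5/Dp1 arrays put Dp5Yah before the bracketed model name, both intervals were read, Dp5Yah as the genes from Cyyr1 to Clic6 and Dp1Rhr as those from Cbr1 to Fam3b. Genes of the Dp5Yah interval were called higher in Dp5/Dp1 for 16 of the 16 listed, and genes of the Dp1Rhr interval for 10 of 16 measured. These lists were chosen, and of all 113 genes measured inside the intervals 37 were called. Among all genes measured 41 were called, and the 4 outside were a, Gpnmb, Cbs and Runx1, the last of which lies just past Clic6 and carried a loxP site used to build Dp5Yah. Hippocampal neuron markers averaged 10.62 to 10.69 in Dp5/Dp1 and 10.61 to 10.68 in controls. Markers of choroid plexus, which lies next to the hippocampus, varied widely in both groups, from 7.02 to 8.77 in Dp5/Dp1 and from 6.88 to 9.10 in controls, and 0 of 12 had a higher mean in Dp5/Dp1. Markers of the medial habenula ran from 7.51 to 8.68 in Dp5/Dp1 and from 7.57 to 8.09 in controls, with Dp5/Dp1 arrays 2 and 5 the highest of the 10, at 8.68 and 8.32, and 8 of 10 markers had a higher mean in Dp5/Dp1.

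The sequences around the annotated starts of a, Gpnmb and the pigment enzyme gene Tyr are shown, and the level of Tyr is given further on. Each sequence is the RefSeq window of GRCm38.p6, 250 bases before and 50 bases after the start, and 8 of the 10 genes had a window that was read. The windows are chr2:155013320-155013619 (plus strand) for a, chr6:49036268-49036567 (plus strand) for Gpnmb and chr7:87493463-87493762 (minus strand) for Tyr. The windows of Gpnmb and Tyr sit at the start of their annotated spans, whereas the start used for a, 155013570, lies inside the span of the gene, which begins at 154950599. Capitals mark the core TGTGGT of RUNX factors on either strand (ACCACA), and the core CATGTG bound by Mitf on either strand (CACATG).
a: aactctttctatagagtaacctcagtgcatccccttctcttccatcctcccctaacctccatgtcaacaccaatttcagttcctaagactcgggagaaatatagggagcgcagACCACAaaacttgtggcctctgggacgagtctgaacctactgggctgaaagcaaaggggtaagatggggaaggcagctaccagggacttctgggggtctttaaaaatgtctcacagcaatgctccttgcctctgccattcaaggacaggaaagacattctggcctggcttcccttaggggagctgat
Gpnmb: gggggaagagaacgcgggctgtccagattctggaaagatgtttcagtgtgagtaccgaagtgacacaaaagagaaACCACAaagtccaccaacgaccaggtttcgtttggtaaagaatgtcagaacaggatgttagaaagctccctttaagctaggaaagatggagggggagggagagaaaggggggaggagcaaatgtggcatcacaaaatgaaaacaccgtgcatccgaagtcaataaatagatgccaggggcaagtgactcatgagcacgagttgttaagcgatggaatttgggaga
Tyr: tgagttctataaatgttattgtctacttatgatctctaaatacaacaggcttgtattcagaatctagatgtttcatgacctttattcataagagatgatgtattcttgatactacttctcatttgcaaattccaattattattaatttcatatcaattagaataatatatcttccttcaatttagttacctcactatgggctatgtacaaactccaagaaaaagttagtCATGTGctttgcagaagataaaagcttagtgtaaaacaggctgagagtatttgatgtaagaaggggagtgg
The window of a held 1 RUNX core, beginning 137 bases before this internal start, and that of Gpnmb held 1, starting 175 bases before its own start. Of all 32851 windows of this length, 16.8% held the same letters. The window of Tyr held CATGTG 21 bases before its start, and the window of Mc1r held CATGTG on both strands, at 51 and 62 bases before. This core was present in 14.2% of all windows. The palindrome CACGTG, a core bound by Mitf and its relatives Tfe3 and Tfeb, was found in the window of Mgrn1, and in 7.15% of all windows. These matches are letters in a window and not measured binding. They were read with earlier results of these data known, the call of Runx1 among them, and regulation by these factors was not tested.

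The gene a (GRCm38 chromosome 2, 154950599 to 155051012) encodes agouti, and lies outside the duplications. Its annotated span overlaps the predicted non-coding gene Gm39965. Its level was 7.72, 7.59, 7.53, 7.57 and 7.69 in Dp5/Dp1 replicates 1 to 5, against 6.97, 7.11, 6.81, 7.01 and 7.05 in control replicates 1 to 5. Every Dp5/Dp1 array lay above every control array. The mean was 7.62 ± 0.08 in Dp5/Dp1 and 6.99 ± 0.12 in controls (SD, n = 5 each), a log2 difference of 0.63 ± 0.06 (SE), or 1.55-fold. No test is given for it, because the gene was chosen for this difference.

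Gpnmb (chromosome 6, 49036518 to 49058182) also lies outside the duplications and overlaps no other annotated gene. It stood at 7.69, 7.65, 7.68, 7.57 and 7.60 in Dp5/Dp1, against 7.35, 7.34, 7.43, 7.47 and 7.36 in controls, in the same order of replicates. The groups again did not overlap, and the lowest Dp5/Dp1 array was 4, the highest control array also 4. The mean was 7.64 ± 0.05 in Dp5/Dp1 and 7.39 ± 0.06 in controls (SD, n = 5 each), a log2 difference of 0.25 ± 0.04 (SE), or 1.19-fold, also without a test. Among all genes tested, 1.08% had groups that did not overlap and 0.762% did so with Dp5/Dp1 higher. Both genes were among the called ones, 2 of 9 measured against 0.206% of all genes (0.201% higher in Dp5/Dp1), a count that the choice of these genes fixes. The call of Gpnmb uses the values that chose the gene and lends it no support. That call was lost without any 1 of Dp5/Dp1 arrays 1, 2 and 3 or control arrays 1, 2 and 5. In those fits the difference of Gpnmb was 0.24 to 0.25.

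**Figure D1:**
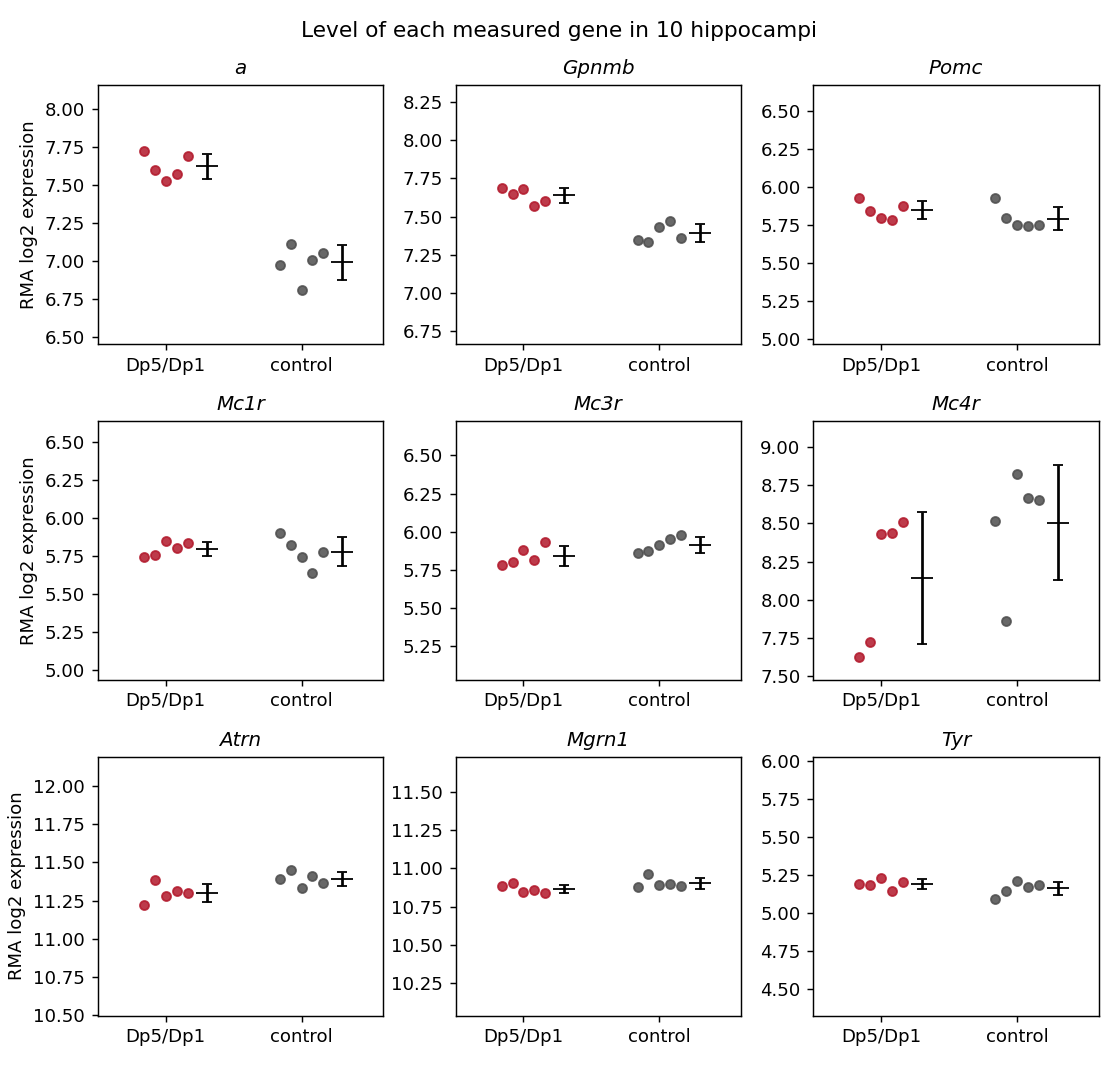
Level of each of the 9 measured genes (y axis, RMA log2 expression, every panel spanning the same number of log2 units) in Dp5/Dp1 and control hippocampi; points are single arrays, replicates 1 to 5 from left to right, with the mean and SD beside them. The groups lie apart for a, with 7.53 to 7.72 in Dp5/Dp1 and 6.81 to 7.11 in controls, and for Gpnmb, and overlap in the other 7 panels, with Mc4r the most scattered.

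With the choroid plexus and medial habenula marker means of each array as covariates, the difference was 0.65 ± 0.07 for a and 0.25 ± 0.04 for Gpnmb (SE), where the call of Gpnmb was lost. Without Dp5/Dp1 arrays 2 and 5, the highest in habenula markers, the difference was 0.62 ± 0.07 for a and 0.26 ± 0.05 for Gpnmb (SE), and the call of Gpnmb was again lost. Markers of the melanocyte and Schwann lineage were called for 0 of 8 measured, near the 0.206% of all genes. Their mean level ran from 6.45 to 6.55 in Dp5/Dp1 and from 6.41 to 6.49 in controls, and 6 of the 8 lay in the dimmest 40% of genes by mean level over all arrays, the pigment genes Tyr, Tyrp1, Dct, Pmel and Mlana among them. Microglia markers ran from 8.37 to 8.57 in Dp5/Dp1 and from 8.46 to 8.54 in controls. Of these 13, 0 were called, near the same share. In bulk tissue, a change in the number of cells of a type and a change in RNA per cell cannot be told apart.

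Across the 10 arrays a and Gpnmb had a Pearson r of 0.87, which describes mostly the gap between the groups. Over the deviations of each array from its group mean, r was -0.26. The Dp5/Dp1 array highest in both was replicate 1, whereas the control array highest in a, replicate 2, was the lowest in Gpnmb.

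**Figure D2:**
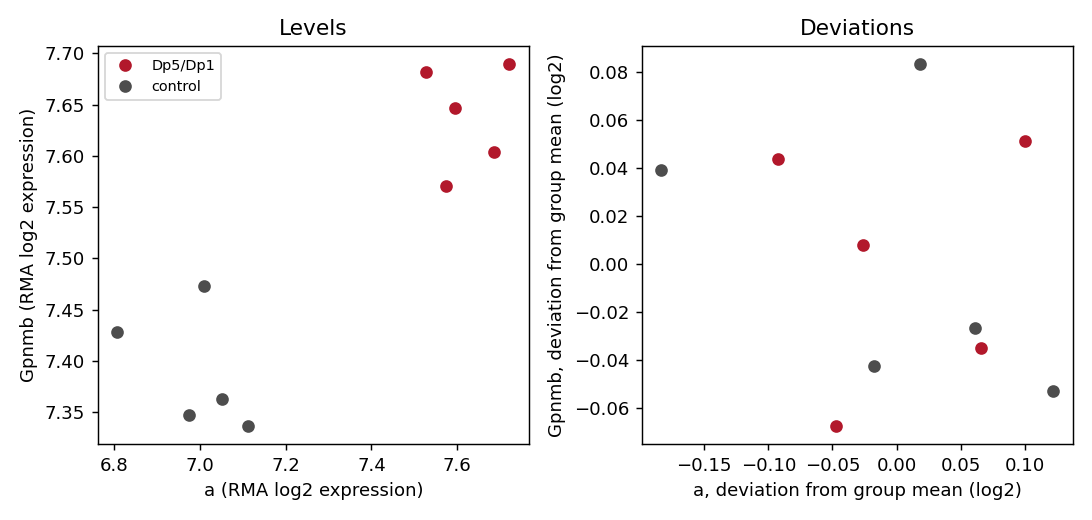
Gpnmb (y axis) against a (x axis) in 10 arrays, as RMA log2 levels on the left and as deviations from each group's mean on the right. The Dp5/Dp1 arrays sit apart from the controls in both genes on the left, with r of 0.87 over the 10 arrays, and the deviations on the right have r of -0.26.

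The genes most like a over the 10 arrays were Runx1 (r = 0.95), the cytokine receptors Il10rb (0.95) and Ifnar2 (0.94), the purine synthesis enzyme Gart (0.93) and Cst10 (0.93). For Gpnmb they were Gart (0.97), Ifnar2 (0.96), the kinase Hunk (0.95), the transcription factor Ets2 (0.95) and the calcineurin regulator Rcan1 (0.95). Of these, Il10rb, Ifnar2, Gart, Hunk, Ets2 and Rcan1 lie inside the duplicated intervals. Runx1 is in part duplicated in Dp5Yah, and Cst10 lies on chromosome 2, like a. Over deviations from the group means the genes most like a were instead Olfr641 (0.95), Olfr1264 (0.91), Ckm (0.91), Iqank1 (0.91) and Apom (0.90), and those most like Gpnmb were Olfr190 (0.92), Olfr869 (0.92), H2bc22 (0.92), Sult2a6 (0.90) and Hhatl (0.90). These are the highest values among 18653 genes over 10 arrays that share the group difference or, for deviations, the same hybridisations, and they are a description.

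The chromosome around a and Gpnmb was read next. Of 46 other genes measured within 1 Mb of a, 0 were called, near the 0.206% of all genes. Their median log2 difference was 0.01, with a range of -0.09 to 0.15. The nearest measured neighbours were Eif2s2, a translation initiation factor subunit, and Itch, a ubiquitin ligase first found through an agouti-region inversion in the mouse. Eif2s2 was at 9.64 ± 0.04 in Dp5/Dp1 and 9.68 ± 0.08 in controls, and Itch at 10.06 ± 0.03 in Dp5/Dp1 and 10.09 ± 0.07 in controls (SD, n = 5 each). Their differences were -0.04 ± 0.04 and -0.03 ± 0.04 (SE), with limma adjusted p = 0.896 and 0.902. In a list of genes of the agouti region, 0 of 17 measured were called, and the lowest p belonged to the peroxisomal membrane gene Pxmp4, with a difference of 0.15 ± 0.07 (SE, limma adjusted p = 0.821), and the autophagy gene Map1lc3a, with 0.11 ± 0.05 (SE, limma adjusted p = 0.824). Around Gpnmb, 0 of 33 other genes within 1 Mb were called, near the same share, with a median of 0.01 and a range of -0.07 to 0.31. The nearest were Svs1, with a difference of -0.03 ± 0.03, and Malsu1, a mitochondrial ribosome factor, with 0.00 ± 0.03 (SE, limma adjusted p = 0.904 and 0.992). The highest value in that window was that of the neuropeptide gene Npy, at 0.31 ± 0.12 (SE, limma adjusted p = 0.806), named after its value was seen. The study, by its own method, listed Npy as upregulated in Dp5/Dp1. At an unadjusted p under 0.05, 2 genes near a and 2 near Gpnmb passed, all higher. Over all genes, 6.06% passed in either direction and 3.39% as higher. By FCROS, 3 of the 46 near a and 2 of the 33 near Gpnmb passed, against 5.06% of all genes. FCROS, the study's own method, ranks fold changes over pairs of arrays, and a gene passes where its f-value lies within 0.025 of either end of the scale. As rewritten here, the f-values are scaled to the spread over all genes. The cut-off therefore largely fixes the share of all genes that passes.

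**Figure D3:**
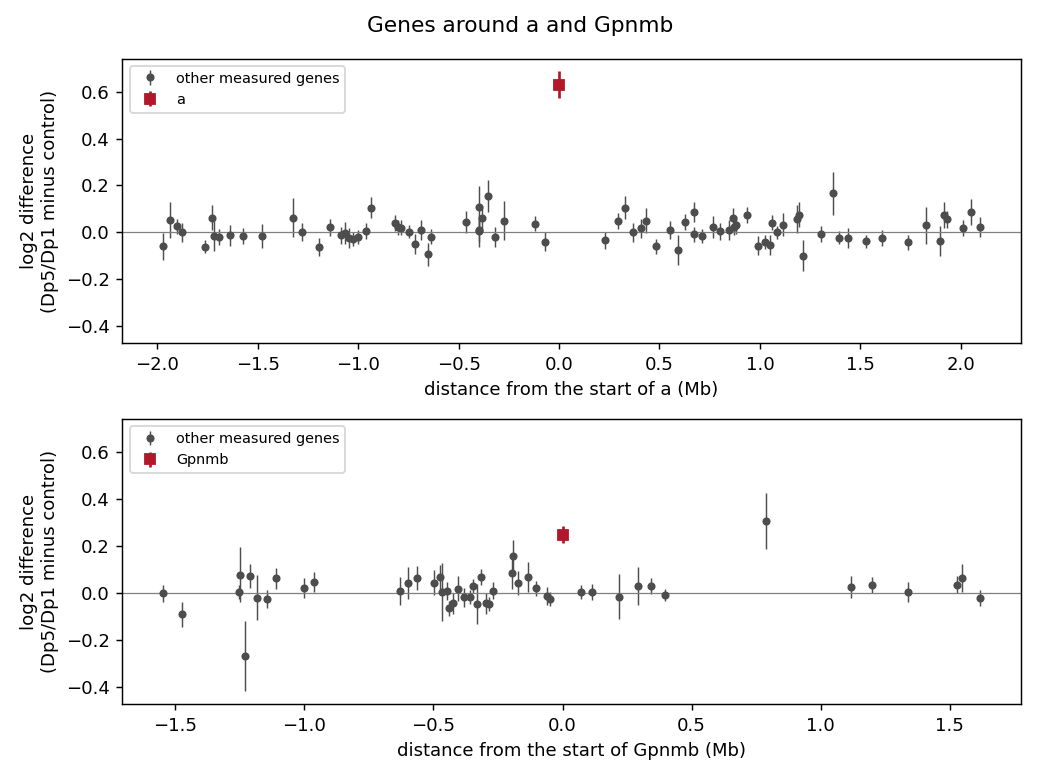
Log2 difference, Dp5/Dp1 minus control (y axis), of every measured gene within 2 Mb of a (top) and Gpnmb (bottom) against distance from the gene's start (x axis, Mb); points are differences and lines the SE. The square of a, at 0.63, stands above every other gene drawn, which within 1 Mb ran from -0.09 to 0.15, and that of Gpnmb, at 0.25, above every one but Npy, at 0.31.

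Pomc (chromosome 12, 3954945 to 3960643) encodes the precursor of the activating melanocortin peptides. Its level was 5.93, 5.85, 5.80, 5.79 and 5.88 in Dp5/Dp1, against 5.93, 5.80, 5.75, 5.75 and 5.75 in controls. The groups overlapped and the gene lay in the dimmest 40%, with a difference of 0.05 ± 0.04 (SE, limma adjusted p = 0.876). It was 0.087 without control array 1, 0.033 without Dp5/Dp1 array 1 and 0.096 between group medians. The list of ligands and their processing, a aside, gave no call either, for 0 of 8 measured with Pomc counted among them. Not all of these genes cut or finish the Pomc precursor, and the protease Corin was also in the list. The lowest p were those of Pam, which amidates peptides, at 0.06 ± 0.03, and of Prcp, which inactivates the end product alpha-MSH, at 0.08 ± 0.05 (SE, limma adjusted p = 0.824 and 0.841).

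Mc4r (chromosome 18, 66857705 to 66860487), the receptor whose loss causes obesity, had the largest spread of the 9 genes. It stood at 7.62, 7.72, 8.43, 8.43 and 8.51 in Dp5/Dp1, against 8.52, 7.86, 8.83, 8.67 and 8.65 in controls. Dp5/Dp1 arrays 1 and 2 and control array 2 were low, while the others lay from 8.43 to 8.51 in Dp5/Dp1 and from 8.52 to 8.83 in controls. The mean was 8.14 ± 0.43 in Dp5/Dp1 and 8.50 ± 0.38 in controls (SD, n = 5 each), a difference of -0.36 ± 0.21 (SE), with a 95% confidence interval of -0.83 to 0.11 and limma adjusted p = 0.841. Its SD within groups, 0.41, exceeded that of 99.6% of all genes. FCROS put Mc4r past its lower limit with an f-value of 0.0034, as it did 2.21% of all genes. Leaving out single arrays gave differences from -0.52, without control array 2, to -0.23, without Dp5/Dp1 array 1. Between group medians the difference was -0.22, and adding the choroid plexus mean as a covariate gave -0.28 ± 0.19 (SE).

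Mc3r (chromosome 2, 172248492 to 172251114), the other brain receptor, was at 5.78, 5.80, 5.88, 5.81 and 5.93 in Dp5/Dp1, against 5.86, 5.87, 5.91, 5.95 and 5.98 in controls. Its difference of -0.07 ± 0.04 (SE, limma adjusted p = 0.832) came from overlapping groups. Mc1r (chromosome 8, 123407082 to 123410744), the receptor of pigment cells, was at 5.74, 5.76, 5.85, 5.80 and 5.84 in Dp5/Dp1, against 5.90, 5.83, 5.74, 5.64 and 5.78 in controls. Its groups overlapped throughout, with a difference of 0.02 ± 0.05 (SE, limma adjusted p = 0.957) that ran from -0.014, without control array 4, to 0.051, without control array 1, when single arrays were left out. It moved by over 1.5 times without any 1 of Dp5/Dp1 arrays 1, 3 and 5 or control arrays 1 to 4. Both lay in the dimmest 40%.

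Of all melanocortin receptors and accessory proteins, 0 of 7 were called, and 6 of the 7 were dim. None of the 7 had an unadjusted limma p under 0.05, whereas 2 passed FCROS. The accessory protein Mrap2, which modulates Mc4r, had a difference of 0.13 ± 0.07 (SE, limma adjusted p = 0.840) and passed FCROS as higher, as did 2.84% of all genes. Mrap, the accessory protein of the corticotropin receptor, lies inside the Dp5Yah interval (chromosome 16, 90738207 to 90749785) and was the 1 gene inside the duplications among the 43 other pathway genes measured. It stood at 6.15 ± 0.04 in Dp5/Dp1 and 6.13 ± 0.06 in controls (SD, n = 5 each), a difference of 0.02 ± 0.03 (SE, limma adjusted p = 0.942), in the dimmest 40% of genes. Mrap was named after its value was seen.

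Atrn (chromosome 2, 130906430 to 131030333) encodes attractin, a membrane protein that agouti needs to act on pigment cells. Its level was 11.22, 11.38, 11.28, 11.31 and 11.30 in Dp5/Dp1, against 11.39, 11.45, 11.33, 11.41 and 11.37 in controls. Of the Dp5/Dp1 arrays, 4 lay below every control array, and array 2 lay among the controls. The difference was -0.09 ± 0.04 (SE), and limma gave an adjusted p = 0.806. Its f-value of 0.034 did not pass FCROS. A further probe set of Atrn had a difference of -0.02 ± 0.03 (SE). The gene overlaps Gm14049 and Gm30286, and both duplications leave it at its normal copy number.

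Mgrn1 (chromosome 16, 4886100 to 4938296, outside the duplications) encodes mahogunin, a ubiquitin ligase that also modifies agouti action. It was at 10.89, 10.90, 10.85, 10.86 and 10.84 in Dp5/Dp1, against 10.88, 10.96, 10.89, 10.90 and 10.88 in controls. The groups overlapped, with a difference of -0.04 ± 0.03 (SE, limma adjusted p = 0.875) that was -0.021 without control array 2. Its SD within groups was larger than that of only 3.69% of genes. With the relatives of both genes included, 0 of 4 measured were called.

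Tyr (chromosome 7, 87424771 to 87493512) encodes tyrosinase, the rate-limiting enzyme of melanin synthesis. Its level was 5.19, 5.18, 5.23, 5.14 and 5.21 in Dp5/Dp1, against 5.09, 5.15, 5.21, 5.17 and 5.18 in controls. The groups overlapped in the dimmest 40% of genes, with a difference of 0.03 ± 0.03 (SE, limma adjusted p = 0.901) that was 0.013 without control array 1. Melanosome and melanin genes were called for 0 of 14 measured, of which 11 were dim. The lowest p were those of Rab38, a GTPase that carries melanin enzymes to the melanosome, at -0.10 ± 0.03, and Mlana, at -0.06 ± 0.04 (SE, limma adjusted p = 0.749 and 0.844). Mitf, the master regulator of pigment cells, with its relatives and upstream signals, gave 0 of 10 called, and the lowest p were those of Sox10, at 0.11 ± 0.07, and of the endothelin receptor Ednrb, at -0.07 ± 0.06 (SE, limma adjusted p = 0.850 and 0.875).

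Over these 5 lists, a and Gpnmb aside, 43 genes were measured and 0 were called, against 0.206% of all genes. Most calls lay inside the duplications, and outside them 4 of 19825 genes were called, a and Gpnmb among them. All but 1 of the 43 lie outside, so 0 calls is near that share and says little about the pathway. Of the 43, 21 lay in the dimmest 40%. The median log2 difference of the 43 genes was -0.01, against 0.00 over all genes. The difference was positive for 20 genes and negative for 23. At an unadjusted p under 0.05, 2 of the 43 passed, Atrn and Rab38, both lower, against 6.06% of all genes in either direction and 2.67% lower. By FCROS 2 passed, Mrap2 higher and Mc4r lower, against 5.06% of all genes.

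**Figure D4:**
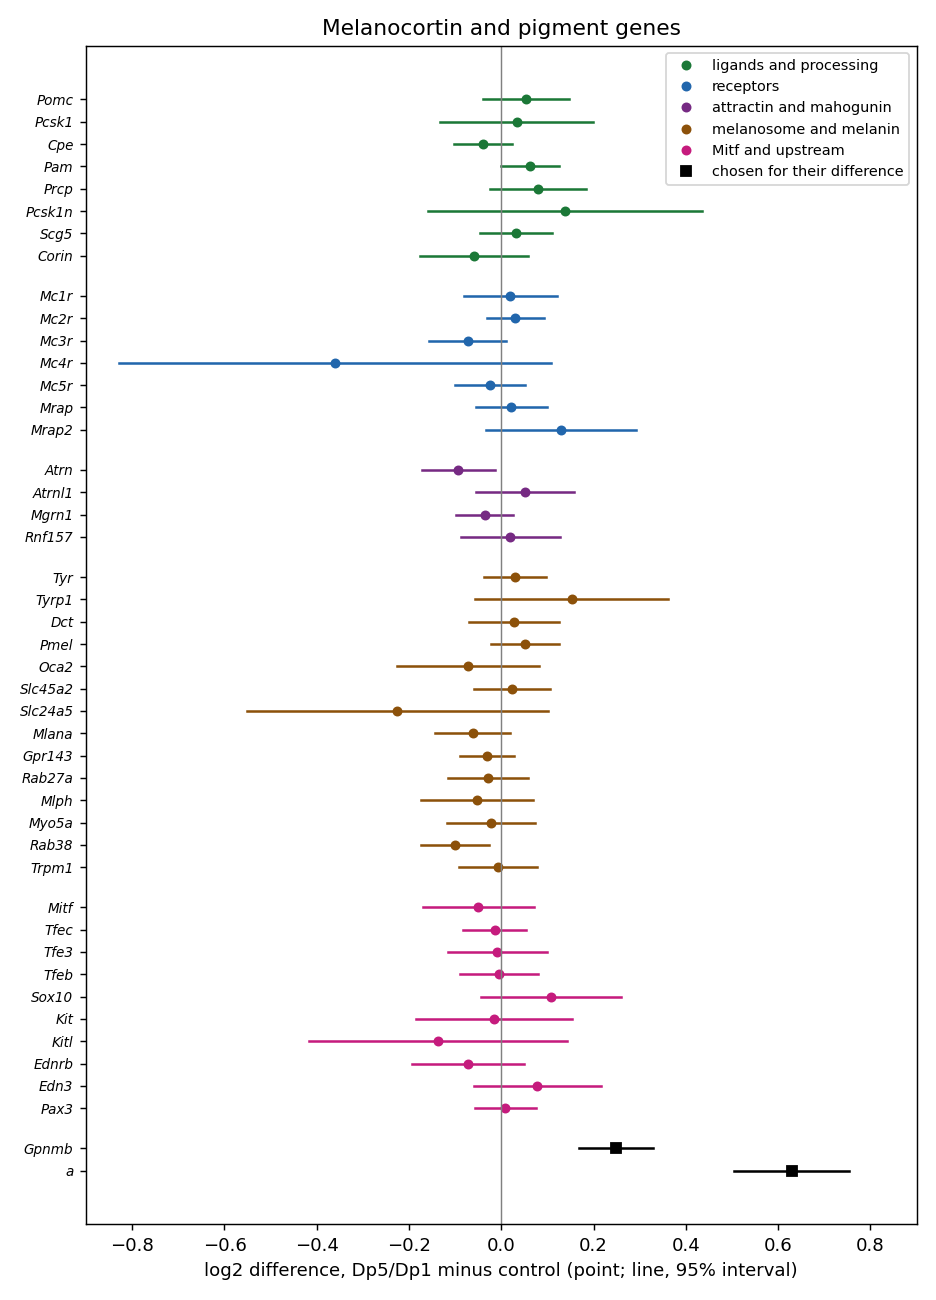
Log2 difference, Dp5/Dp1 minus control (x axis), of 43 melanocortin and pigment genes in 5 lists (y axis), with a and Gpnmb below them; points are differences and lines 95% intervals. The intervals of Atrn and Rab38 alone among the 43 lie to 1 side of 0, the widest is that of Mc4r, from -0.83 to 0.11, and a at 0.63 and Gpnmb at 0.25, chosen for their difference, lie to the right.

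The cAMP pathway, which carries the signal of these receptors, gave 0 of 19 called, near the 0.206% of all genes. The adenylate cyclases Adcy9 and Adcy3 had differences of -0.06 ± 0.04 and -0.07 ± 0.05 (SE, limma adjusted p = 0.845 and 0.864). Among genes that accompany Gpnmb in lipid- or lysosome-loaded microglia and macrophages, 0 of 18 others were called. Of these, the lipid carrier Apoe had a difference of -0.10 ± 0.04 and the lysosomal protease Ctsz one of 0.10 ± 0.04 (SE, limma adjusted p = 0.806 and 0.821). Lysosomal proteins were called for 0 of 17, with the cholesterol transporter Npc1 at -0.10 ± 0.05 and the protective protein Ctsa at 0.06 ± 0.03 (SE, limma adjusted p = 0.828 and 0.832). Proteins reported to bind or cut Gpnmb were called for 0 of 7, with the proteoglycan Sdc4 at -0.23 ± 0.09 and the protease Adam10 at -0.04 ± 0.03 (SE, limma adjusted p = 0.806 and 0.881). At an unadjusted p under 0.05 these 4 lists held 3 of 61 genes, Apoe, Ctsz and Sdc4, against 6.06% of all genes, and FCROS passed 1 of the 61, Sdc4, against 5.06% of all genes.

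Marker lists of cell types and adjacent tissues were read by the same rule, and 0 of their genes were called, near the 0.206% of all genes. Among microglia markers the lowest p were those of Sall1, at -0.06 ± 0.04, and C1qb, at 0.09 ± 0.08 (SE, limma adjusted p = 0.832 and 0.876). Border macrophage markers, 7 of 8 of them dim, had Pf4 at 0.09 ± 0.06 and Lyve1 at -0.12 ± 0.08 (SE, limma adjusted p = 0.846 and 0.862). Leptomeningeal markers ran from 7.91 to 8.23 in Dp5/Dp1 and from 7.85 to 8.35 in controls, with Ptgds at 0.21 ± 0.09 and Slc22a6 at -0.06 ± 0.04 (SE, limma adjusted p = 0.812 and 0.875). Of 13 hypothalamic markers, 10 were dim, and their mean ran from 6.33 to 6.40 in Dp5/Dp1 and from 6.32 to 6.39 in controls, with the lowest p for Trh, at -0.08 ± 0.05 (SE, limma adjusted p = 0.848), and Pomc. Melanocyte and Schwann markers had the lowest p for Mlana, given above, and Tyrp1, at 0.15 ± 0.10 (SE, limma adjusted p = 0.845). Hippocampal markers had Zbtb20 at -0.12 ± 0.06 and Spink8 at 0.12 ± 0.07 (SE, limma adjusted p = 0.824 and 0.841). Habenula markers had Tac1 at 0.32 ± 0.12 and Tac2 at 0.92 ± 0.40 (SE, limma adjusted p = 0.806 and 0.814), and choroid plexus markers had Tmem72 at -0.57 ± 0.44 and Kl at -0.43 ± 0.34 (SE, limma adjusted p = 0.875 for both). Over these 8 lists 3 of 89 genes had an unadjusted limma p under 0.05, Ptgds, Tac1 and Tac2, against 6.06% of all genes. FCROS passed 7 of the 89, against 5.06% of all genes. They were 4 of 10 habenula markers, against 2.84% of all genes higher, 1 of 13 leptomeningeal and 1 of 12 hippocampal markers as higher, and 1 of 12 choroid plexus markers as lower. The part of these tissues in the results was not tested beyond the covariate fits given.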

How the data were processed

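Mouse Gene 1.0 ST arrays of hippocampus from 5 Dp5/Dp1 and 5 control mice were analysed. The authors deposited log2 expression values after RMA (background correction, quantile normalization and a summary per probe set), which compresses differences of dim probe sets. RMA, limma and the mm10 build are listed, without versions, in the submitters' processing notes. Groups came from the condition label. Of 35556 probe sets, 21789 had 1 gene symbol, 1621 had several and 12146 were unnamed, and the highest-mean probe set per gene left 19938 genes. Positions and promoter windows came from RefSeq GRCm38.p6, the assembly of mm10. Array medians lay between 6.73 and 6.80 and correlations between arrays, across genes, between 0.996 and 0.999, and the number of arrays limits the precision.

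Dp5/Dp1 was compared with control with limma 3.58.1 under R 4.3.3, by two-sided moderated tests from lmFit and eBayes without covariates and with Benjamini-Hochberg adjustment over all genes. Scripts were tested on simulated data. FCROS was rewritten from its description (25 array pairs, f-value under 0.025 in either tail). The alternatives comprised filters, normalization, probe set choice, variance models, marker covariates, a replicate block and leaving out arrays. The 10 genes, the gene lists and the tests were chosen with earlier results of these data known. All measured members were named, and in other lists the called genes or the 2 with the lowest p. The neighbours on each side of a and Gpnmb and the 5 genes most like each were also named, predicted genes aside.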

Additional observations from a re-analysis of the deposited data

Results flagged for a closer look

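In 4 of 34 groups of 5 arrays looked at (9 genes and 8 marker means, in each condition), 1 array lay far from the other 4 by Dixon's ratio, which chance gives in about 1 in 20 groups. The highest control array of Pomc, replicate 1, was at 5.93, while the other controls lay from 5.75 to 5.80. The highest control array of Mgrn1, replicate 2, was at 10.96, while the other controls lay from 10.88 to 10.90. The mean of the habenula markers was 8.68 and 8.32 in Dp5/Dp1 arrays 2 and 5, which this ratio did not pick out, and 8.09 in control array 3, which it did, and the mean of the hippocampal neuron markers was lowest in 1 control array, at 10.61. The low Mc4r values of Dp5/Dp1 arrays 1 and 2 and control array 2 did not pass this ratio.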

How the results depend on the processing

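The log2 difference of a lay between 0.58 and 0.66 and that of Gpnmb between 0.24 and 0.28 under 24 alternatives each. Several of these cannot change the difference of a gene with 1 probe set. They are the dim-gene filter, the probe set choices, the intensity trend, the replicate block and the other cut-offs, FCROS included. Gpnmb was no longer called in 9 of 23 alternatives with a test: with the replicate block, with both marker covariates, without Dp5/Dp1 arrays 2 and 5, and in the 6 single omissions named with its values. These calls use the values that chose a and Gpnmb and lend them no support. The whole table gave 26 calls with the replicate block and 21 without Dp5/Dp1 arrays 2 and 5, against 41. It gave 29 to 39 when single arrays were left out. FCROS passed 1008 genes, a number that its cut-off largely fixes, so it is not comparable with the 41. Of the 43 other pathway genes 2 passed FCROS, Mc4r at -0.36 and Mrap2, and of the genes within 1 Mb of a and Gpnmb 5 did, against 0 by limma, which also gave 0 within 0.5 and 2 Mb. The difference of Mc1r was -0.014 to 0.051 when single arrays were left out, the lowest without control array 4, and its other alternatives and those of the other members kept their sign. The replicate numbers were taken only as names of the mice. Same-numbered arrays had correlations of deviations from -0.35 to 0.29, which cannot tell whether the numbers follow a shared litter or batch. The block ended the call of Gpnmb, at a difference of 0.25, and gave 0 calls among the 43 genes.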
